A study of Mus musculus with 8 samples.

Results

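Genes for the subunits of potassium, sodium and calcium channels were examined in whole back skin of mice that lack the coactivator Mediator 1 (Med1) in keratinocytes. The genes were chosen by name alone, as every probe of the array whose gene symbol begins with Kcn, with Scn followed by a digit, with Scnn1 or with Cacn. This gave 167 of the 25697 probes, for 111 of the 16593 genes. The naming rule uses no measured value.

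RNA was measured on 8 arrays, 1 for each mouse. The 4 KO mice carried floxed alleles (MED1 fl/fl) together with Cre recombinase driven by the Krt14 promoter, which is active in keratinocytes of the epidermis, hair follicle and sebaceous gland. The 4 Control mice carried the same floxed Med1 alleles without Cre. All mice were 10 weeks old and on the C57BL6 background, and the RNA came from the whole thickness of skin excised from the back, so that muscle, vessel, nerve, fat and immune cells without Cre were measured with the epithelium. The comparison of KO with Control skin answers which channel transcripts differed between skin with Med1 deleted from Krt14-expressing cells and skin without the deletion. The paper reports that at this age KO skin showed an abnormal shift to anagen, the growth phase of the hair cycle. It describes Control skin as in telogen, the resting phase. Hair cycle stage may therefore differ between the groups together with genotype, and this comparison cannot separate them. The part of hair cycle stage in the changes below was not tested.

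Voltage-gated channels are built from a pore-forming subunit, called alpha or alpha1, and from accessory subunits that set its trafficking and gating, and they carry the action potentials of nerve and muscle. Potassium channels without strong voltage gating, among them the two-pore and inward rectifier families, set the resting potential of most cells. Epithelia use a different sodium channel, the amiloride-sensitive epithelial sodium channel, which is assembled from the alpha, beta and gamma subunits encoded by Scnn1a, Scnn1b and Scnn1g and takes up sodium at the apical face.

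Values below are log2 of the background-corrected and quantile-normalized signal, and changes are KO minus Control on that scale with the standard error of limma's fit. A probe was detected on an array when its detection p-value was below 0.05. A probe was tested when it was detected on at least 4 of the 8 arrays, and a gene is given by its brightest tested probe. A gene was called when limma's p-value, adjusted by the Benjamini-Hochberg method over all 15120 tested probes, was below 0.05. The arrays detected 14593 to 15149 probes each, the lowest signal of a detected probe lay between 5.09 and 5.21, and arrays correlated at 0.991 to 0.993 within a group and at 0.908 to 0.916 between groups. The brightest Med1 probe read 8.26, 7.80, 8.39 and 8.45 in the KO mice, against 9.05, 8.99, 8.92 and 9.10 in the Control mice, a change of -0.79 ± 0.14 (adjusted p = 0.000649). Whether that probe lies in the floxed exons was not checked. Of the other Med1 probes, 1 changed by -0.69 (adjusted p = 0.00861), 1 by -0.23 (adjusted p = 0.252), and 1 was not detected on any array.

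Promoter sequences are shown for the channel genes the results turn on. These are the 2 epithelial sodium channel subunits with a RefSeq entry here, both higher in KO skin, and Kcnc4 and Scn4b, the 2 called genes with the smallest adjusted p among those lower in KO skin. Each runs from 250 bases before to 50 bases after a RefSeq transcription start, read 5′ to 3′ on the gene's strand in GRCm38.p6. The Kcnc4 window lies inside that gene's annotated span, chr3:107438298-107460287, and downstream of its 5′ end, so it is not at the gene's outermost start. Scnn1b is at chr7:121864788-121865087 (+), Scnn1g at chr7:121734229-121734528 (+), Kcnc4 at chr3:107458849-107459148 (-) and Scn4b at chr9:45138374-45138673 (+). Capitals mark CAGGTG, an E-box, and AGGTCA, a nuclear receptor half-site, on either strand (CACCTG and TGACCT on the reverse).
Scnn1b: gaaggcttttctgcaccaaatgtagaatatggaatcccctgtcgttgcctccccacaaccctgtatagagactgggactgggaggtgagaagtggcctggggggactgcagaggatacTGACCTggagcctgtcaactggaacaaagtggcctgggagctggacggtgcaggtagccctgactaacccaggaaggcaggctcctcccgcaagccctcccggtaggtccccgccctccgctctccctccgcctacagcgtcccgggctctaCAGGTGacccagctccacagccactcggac
Scnn1g: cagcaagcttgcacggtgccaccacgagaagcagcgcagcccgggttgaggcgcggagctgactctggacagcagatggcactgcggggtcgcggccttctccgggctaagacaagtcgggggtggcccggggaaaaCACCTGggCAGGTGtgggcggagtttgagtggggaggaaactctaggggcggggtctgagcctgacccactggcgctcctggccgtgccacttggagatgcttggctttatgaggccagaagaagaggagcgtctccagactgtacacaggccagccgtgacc
Kcnc4: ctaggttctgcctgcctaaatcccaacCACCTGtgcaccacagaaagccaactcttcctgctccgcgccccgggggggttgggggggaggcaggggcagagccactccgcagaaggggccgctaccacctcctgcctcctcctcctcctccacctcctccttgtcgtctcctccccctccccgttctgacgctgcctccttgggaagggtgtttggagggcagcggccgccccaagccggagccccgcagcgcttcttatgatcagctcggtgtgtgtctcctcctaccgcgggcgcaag
Scn4b: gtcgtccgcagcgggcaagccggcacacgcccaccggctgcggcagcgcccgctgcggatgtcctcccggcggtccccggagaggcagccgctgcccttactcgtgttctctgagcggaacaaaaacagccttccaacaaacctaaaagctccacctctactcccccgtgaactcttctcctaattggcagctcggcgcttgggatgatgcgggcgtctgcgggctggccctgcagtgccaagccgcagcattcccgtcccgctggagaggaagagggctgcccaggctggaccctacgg
The E-box was in the promoters of Scnn1b, Scnn1g and Kcnc4, with 2 copies in Scnn1g, and in 20.2% of all 32851 RefSeq promoters of this length. The half-site was in the Scnn1b promoter among the 4 shown and in 16.3% of all promoters. Neither was in the Scn4b window. Promoters matched 86 of the 111 channel genes, and over these 117 windows the shares were 23.1% for the E-box and 9.4% for the half-site. Both motifs were chosen after the promoters had been looked at. These matches describe letters in a window and were not tested for binding.

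Of the 111 channel genes, 46 had a tested probe. The other 65 were not tested, and 50 of them were not detected on any array. Of the 46 tested genes, 36 were called, against 63.8% called over all 10350 tested genes: 10 were higher (background 29.4%) and 26 were lower (background 34.4%). A change of 2-fold or more was called for 5 higher and 16 lower genes, where the background shares were 7.4% and 9.89%. The median change was -0.57 over the 46 channel genes and -0.04 over all tested genes. The filter let 5 genes in through detection in 1 group only, 2 of them in KO skin and 3 in Control skin, and these had to differ in signal. Of the 46 tested channel genes, 33 were called without overlap of KO and Control values, against 58.4% of all tested genes. Taken over called genes alone, this was 33 of 36 channel genes and 6040 of 6608 genes of the whole array. Counts of called genes below, also for marker lists, are to be read against 29.4% higher and 34.4% lower over all tested genes. Whole skin RNA cannot tell fewer cells of a type from less RNA per cell, and this holds for every gene below.

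**Figure D1:**
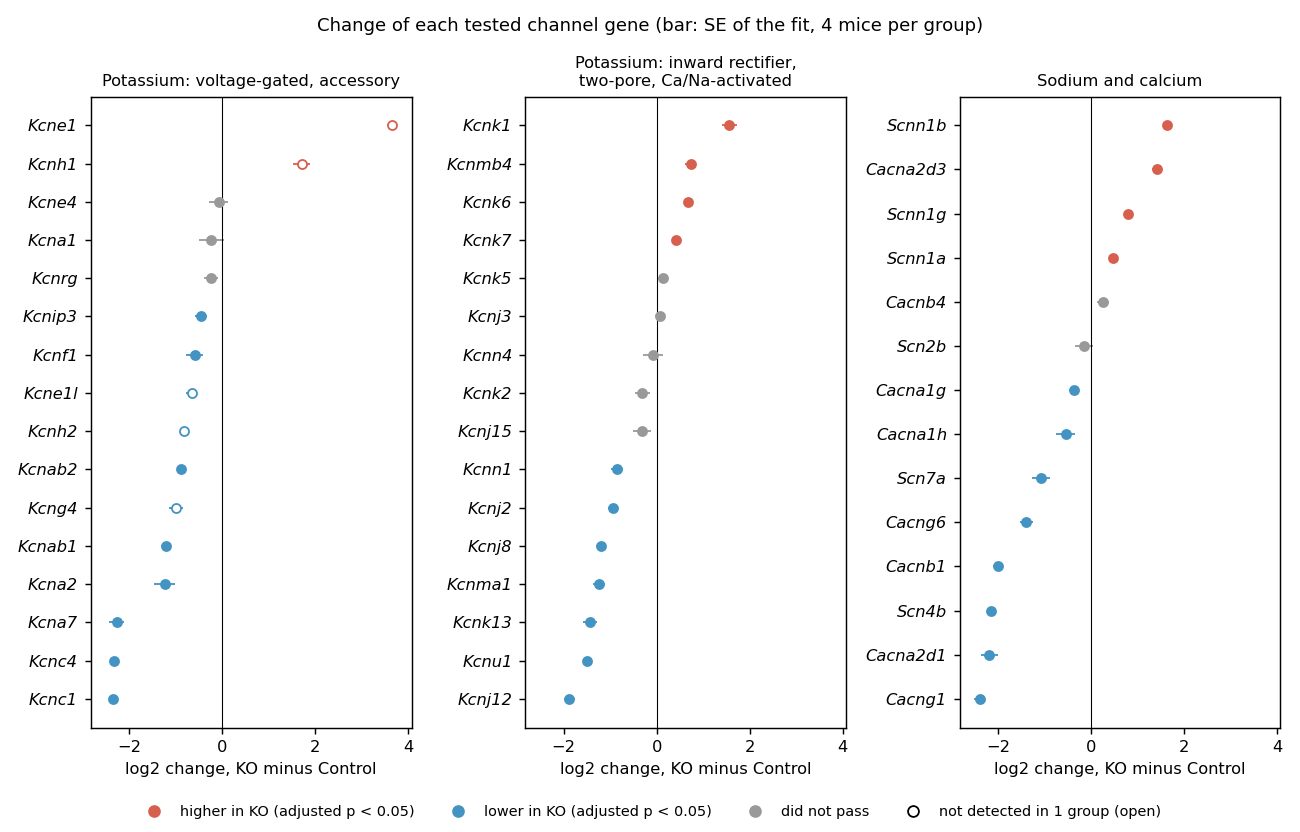
Change of each of the 46 tested channel genes as log2 KO minus Control (horizontal axis), with genes ordered by change within 3 panels; bars are the standard error of limma's fit over 4 KO and 4 Control mice, and open points mark fitted differences of genes whose probe was not detected in 1 group, for which the text gives bounds. Among genes detected in both groups, changes ran between 1.63 for Scnn1b and -2.40 for Cacng1, and 26 of the 36 called genes lay to the left of 0.

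The 3 subunits of the epithelial sodium channel were all higher in KO skin, by unequal amounts. Scnn1b, the beta subunit, read 8.93, 9.20, 8.97 and 9.07 in the KO mice, against 7.35, 7.35, 7.40 and 7.55 in the Control mice. Scnn1g, the gamma subunit, read 7.75, 7.67, 7.78 and 7.62 in the KO mice, against 7.14, 6.89, 6.80 and 6.78 in the Control mice. Scnn1a, the alpha subunit, read 8.98, 9.09, 9.10 and 8.87 in the KO mice, against 8.42, 8.38, 8.67 and 8.65 in the Control mice. Every KO mouse was above every Control mouse for each subunit. The change was 1.63 ± 0.085 for Scnn1b (3.09-fold, adjusted p = 2.16e-07), 0.80 ± 0.094 for Scnn1g (1.74-fold, adjusted p = 5.15e-05) and 0.48 ± 0.095 for Scnn1a (1.39-fold, adjusted p = 0.0016). Whether the 3 changes differed from each other was not tested. Their summed linear signal was 1202 to 1338 in KO skin and 614 to 698 in Control skin. Of 7 keratinocyte markers tested, 3 were higher, 1 was lower and 3 were not called. Their summed signal was 98119 to 102250 in KO skin and 92873 to 95486 in Control skin. That sum rests mostly on Krt14 and Krt10, which were not called. The called markers changed by 2.15 (Sfn), 0.37 (Perp), 0.31 (Trp63) and -0.30 (Krt5). The part of these markers in the result was not tested.

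Genes that act on this channel were taken from a list of 10 regulators, of which 7 were tested. Of these, 4 were higher, 2 were lower and 1 was not called, where 29.4% of all tested genes were higher and 34.4% lower. St14, the membrane protease matriptase, changed by 2.05 ± 0.11 (adjusted p = 2.29e-07), and Prss8, the channel-activating protease prostasin, by 1.41 ± 0.12 (adjusted p = 5.12e-06). Furin, which cleaves the alpha and gamma subunits, changed by 0.35 ± 0.070 (adjusted p = 0.0016), and Sgk1, the kinase that keeps the channel at the membrane, by 0.34 ± 0.070 (adjusted p = 0.00202). Nedd4l, the ubiquitin ligase that removes the channel from the membrane, was lower (-0.47 ± 0.095, adjusted p = 0.00167). Tsc22d3, a steroid-induced protein that binds the channel's regulatory complex, was also lower (-0.77 ± 0.074, adjusted p = 1.34e-05).

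Scn4b, Scn7a and Scn2b were the other sodium channel genes with a tested probe. Scn4b encodes a beta subunit of voltage-gated sodium channels. It read 9.13, 9.06, 9.10 and 9.08 in the KO mice, against 11.27, 11.15, 11.36 and 11.19 in the Control mice. The groups were far apart, and the KO mice differed among themselves by less than 0.1. The change was -2.15 ± 0.070, to 22.5% of Control (adjusted p = 1.21e-08). Scn7a, a sodium-sensing alpha-like subunit found in glia and neurons, read 5.47, 6.24, 5.73 and 5.80 in the KO mice, against 6.81, 7.04, 6.49 and 7.26 in the Control mice, without overlap, and changed by -1.09 ± 0.19 (adjusted p = 0.000816). Scn2b, another beta subunit, overlapped and was not called (-0.15 ± 0.20, adjusted p = 0.534).

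**Figure D2:**
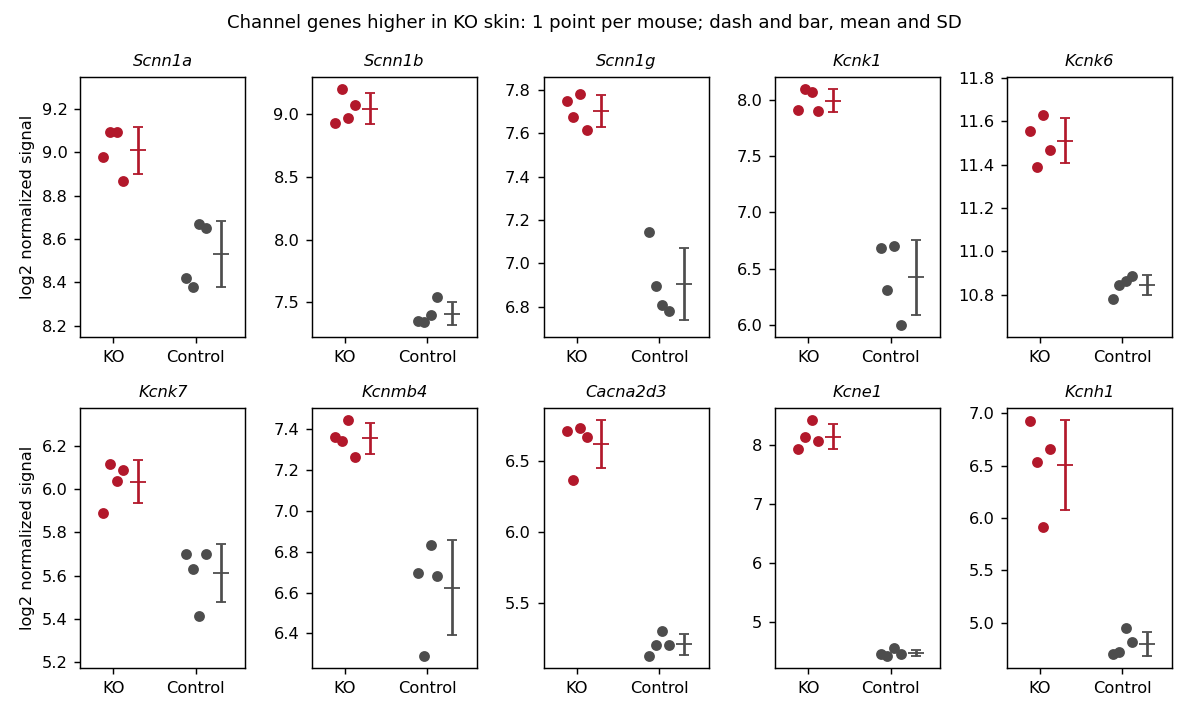
log2 normalized signal (vertical axis, separate scale per gene) of the 10 channel genes called higher in KO skin, 1 point per mouse, KO left and Control right, with the mean as a dash and the SD as a bar (n = 4 each). All KO points lie above all Control points in each panel, and the probes shown for Kcne1 and Kcnh1 were not detected on any Control array.

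Among potassium channel genes, 32 were tested. Of these, 6 were higher (29.4% over all tested genes), 18 were lower (34.4% over all tested genes) and 8 were not called. The voltage-gated pore-forming subunits made up 9 of them, with 1 higher, 7 lower and 1 not called. Kcnc4, a fast-activating Kv3 channel of nerve and muscle, read 8.07, 7.89, 7.93 and 7.86 in the KO mice, against 10.24, 10.23, 10.35 and 10.27 in the Control mice. Kcnc1, a Kv3 channel of fast-spiking neurons, read 6.46, 6.44, 6.32 and 6.24 in the KO mice, against 8.75, 8.56, 8.78 and 8.78 in the Control mice. Kcna7, a Shaker-type channel of skeletal and heart muscle, read 5.54, 5.23, 5.60 and 5.41 in the KO mice, against 7.56, 8.16, 7.72 and 7.41 in the Control mice. In all 3 genes each KO mouse was far below each Control mouse.

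The change was -2.33 ± 0.073 for Kcnc4 (19.9% of Control, adjusted p = 9.67e-09), -2.35 ± 0.083 for Kcnc1 (19.6%, adjusted p = 1.88e-08) and -2.27 ± 0.16 for Kcna7 (20.7%, adjusted p = 1.52e-06). The other tested Kcnc4 probe was not above background on any KO array, which makes it at least 2.66-fold lower in KO skin (adjusted p = 1.08e-05). That probe passed the detection filter through the 4 Control arrays only, so it had to differ in signal. Kcna2, a Shaker-type channel of myelinated axons, read 5.54, 4.86, 5.54 and 5.11 in the KO mice, against 6.19, 6.36, 6.36 and 7.09 in the Control mice, and changed by -1.24 ± 0.22 (adjusted p = 0.000758). Its close relative Kcna1 was not called (-0.23 ± 0.27, adjusted p = 0.489), with overlapping values.

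Kcng4, a modifier subunit with no current of its own, was not above background on any KO array and was detected on all 4 Control arrays, so that it was lower in KO skin by at least 1.57-fold (adjusted p = 0.000282). Kcnh2, the rapid delayed rectifier of the heart, had the same pattern and was at least 1.51-fold lower (adjusted p = 2.88e-05). Kcnf1, another modifier subunit, was detected on 1 KO and 3 Control arrays and changed by -0.59 ± 0.18 with overlapping values (adjusted p = 0.0166). Kcnh1, the ether-à-go-go channel that is also known from proliferating cells, went the other way. Its tested probe read 6.92, 6.54, 5.91 and 6.66 in the KO mice. No Control array detected this probe (4.70, 4.72, 4.95 and 4.81), which makes its signal at least 2.59-fold higher in KO skin (adjusted p = 3.32e-05). The second Kcnh1 probe, not tested, was detected on 1 KO and 1 Control array and averaged 4.92 in KO skin and 4.92 in Control skin. Proliferation markers were higher in KO skin in 7 of 7 tested genes, with a summed signal of 8529 to 8644 in KO skin and 1885 to 2187 in Control skin, and their part in the Kcnh1 result was not tested.

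Accessory potassium subunits gave the largest increase of the whole set. Kcne1, a single-span subunit that slows the gating of Kcnq1, read 7.93, 8.13, 8.43 and 8.06 in the KO mice. The same probe read 4.46, 4.44, 4.56 and 4.47 in the Control mice and was not above background on any of those arrays. The level in KO skin was at least 8.0-fold higher (adjusted p = 5.76e-09). The array has 3 further Kcne1 probes, all near background. The tested one, detected on 2 KO and 2 Control arrays, changed by 0.20 (adjusted p = 0.335). Of the untested ones, 1 was detected on 3 KO arrays (5.36, 5.36, 5.33 and 4.75 in the KO mice, against 4.44, 4.46, 4.75 and 4.43 in the Control mice), with each KO mouse above each Control mouse, and 1 was detected on 2 KO arrays and 1 Control array with overlapping values. The call rests on the brightest probe. Hair shaft and inner root sheath markers were higher in 12 of 12 tested genes, with a summed signal of 204004 to 210478 in KO skin and 582 to 2294 in Control skin (Krt25 was not detected), and melanocyte markers were higher in 8 of 9, with 10643 to 11406 in KO skin and 852 to 982 in Control skin. Krt35, Krt72 and Padi3 of the first list, and Tyr, Oca2 and Gpr143 of the second, were not detected on any Control array. They passed the detection filter through the KO arrays only, so they had to differ in signal. The part of both marker lists in the increases of channel genes was not tested.

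The other called accessory subunits were lower. Kcnab1, a cytoplasmic beta subunit of Shaker-type channels, read 6.31, 6.44, 6.33 and 6.06 in the KO mice, against 7.55, 7.52, 7.58 and 7.36 in the Control mice, and changed by -1.22 ± 0.095 (adjusted p = 3.35e-06). Its second tested probe changed by -0.95. Kcnab2, the related beta subunit, read 8.33, 8.18, 8.36 and 8.32 in the KO mice, against 9.03, 9.28, 9.20 and 9.25 in the Control mice, and changed by -0.89 ± 0.079 (adjusted p = 7.77e-06). For both beta subunits the groups did not overlap. Kcne1l, a relative of Kcne1, was not above background on any KO array and was at least 1.31-fold lower (adjusted p = 0.000798). Kcnip3, a calcium-binding partner of Kv4 channels, changed by -0.46 ± 0.13 with overlapping values (adjusted p = 0.0139). Kcne4 (-0.08 ± 0.21, adjusted p = 0.768) and Kcnrg (-0.24 ± 0.15, adjusted p = 0.2) were not called.

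Inward rectifiers were lower or not called. Kcnj12, a strong inward rectifier of muscle, read 5.23, 5.43, 5.03 and 5.25 in the KO mice, against 7.01, 6.97, 7.36 and 7.10 in the Control mice. Kcnj2, the classical strong rectifier of skeletal and heart muscle, read 6.76, 6.25, 6.53 and 6.49 in the KO mice, against 7.41, 7.44, 7.32 and 7.62 in the Control mice. Kcnj8, the pore of the ATP-sensitive channel of vessels, read 6.27, 6.42, 6.35 and 6.45 in the KO mice, against 7.36, 7.76, 7.42 and 7.75 in the Control mice. No KO value reached a Control value in any of the 3 genes.

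The change was -1.88 ± 0.11 for Kcnj12 (27.2% of Control, adjusted p = 5.70e-07), -0.94 ± 0.11 for Kcnj2 (52.1%, adjusted p = 6.80e-05) and -1.20 ± 0.11 for Kcnj8 (43.5%, adjusted p = 8.71e-06). Abcc9, the sulfonylurea receptor that pairs with Kcnj8 in vessels, was lower as well (-1.96 ± 0.12, adjusted p = 6.32e-07). Smooth muscle and pericyte markers were lower in 5 of 9 tested genes, and the other 4 were not called. Their summed signal was 18295 to 20243 in KO skin and 30908 to 33114 in Control skin. That sum rests mostly on Acta2, which was not called (-0.12), and on Des (-1.72). Endothelial markers were lower in 8 of 9, with 4769 to 5149 in KO skin and 10999 to 11700 in Control skin. The part of both marker lists in the Kcnj8 result was not tested. Kcnj15 and Kcnj3 were not called, at -0.32 ± 0.20 (adjusted p = 0.18) and 0.07 ± 0.11 (adjusted p = 0.616).

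Two-pore channels, which carry background potassium current, held 3 of the 6 potassium genes that were higher. Kcnk1 read 7.91, 8.09, 8.07 and 7.90 in the KO mice, against 6.68, 6.31, 6.70 and 6.0 in the Control mice. Kcnk6 read 11.56, 11.39, 11.63 and 11.47 in the KO mice, against 10.78, 10.85, 10.86 and 10.89 in the Control mice. Kcnk7 read 5.89, 6.11, 6.04 and 6.09 in the KO mice, against 5.70, 5.63, 5.42 and 5.70 in the Control mice. These 3 genes encode related subunits of 1 subfamily, and in each the lowest KO mouse was above the highest Control mouse.

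Kcnk1 changed by 1.57 ± 0.15 (2.96-fold, adjusted p = 1.43e-05), Kcnk6 by 0.67 ± 0.074 (1.59-fold, adjusted p = 3.59e-05) and Kcnk7 by 0.42 ± 0.089 (1.34-fold, adjusted p = 0.00234). A second Kcnk6 probe changed by 0.61 (adjusted p = 0.00381). Kcnk13 went down. It read 5.85, 5.75, 5.85 and 6.47 in the KO mice, against 7.58, 7.50, 7.26 and 7.34 in the Control mice, with KO mouse 4 above the other KO mice, and changed by -1.44 ± 0.16 (adjusted p = 3.23e-05). Kcnk2, a mechanically gated channel, was not called (-0.31 ± 0.15, adjusted p = 0.109), nor was the acid-sensitive Kcnk5 (0.13 ± 0.10, adjusted p = 0.281).

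Channels gated by calcium or sodium ions and their subunits comprised 5 tested genes, with 1 higher, 3 lower and 1 not called. Kcnmb4, a beta subunit of the large-conductance calcium-activated channel, read 7.36, 7.34, 7.45 and 7.26 in the KO mice, against 6.69, 6.29, 6.83 and 6.68 in the Control mice. Kcnma1, the pore of that channel, read 5.21, 5.09, 4.68 and 5.20 in the KO mice, against 6.23, 6.35, 6.43 and 6.13 in the Control mice, and was detected on 1 KO array. The subunit and its pore thus moved in opposite directions, without overlap in either at the brightest probe. Kcnmb4 changed by 0.73 ± 0.11 (adjusted p = 0.000365) and Kcnma1 by -1.24 ± 0.13 (adjusted p = 2.04e-05). The 2 other tested Kcnmb4 probes changed by 0.97 and 0.40, the latter with overlapping values. Each of these was detected on 1 Control array.

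Kcnu1, a pH-sensitive relative of Kcnma1 known from sperm, read 5.96, 5.61, 5.76 and 5.79 in the KO mice, against 7.29, 7.36, 7.23 and 7.23 in the Control mice, and changed by -1.50 ± 0.085 (adjusted p = 4.02e-07). Kcnn1, a small-conductance calcium-activated channel, read 5.63, 5.93, 5.73 and 5.92 in the KO mice, against 6.97, 6.48, 6.51 and 6.67 in the Control mice, and changed by -0.86 ± 0.12 (adjusted p = 0.000194). Neither overlapped. Kcnn4, the intermediate-conductance channel, was close to background and not called (-0.08 ± 0.21, adjusted p = 0.755).

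Calcium channel genes were mostly lower, with 1 higher, 6 lower and 1 not called among 8 tested. Over all tested genes 29.4% were higher and 34.4% were lower. Cacng1, the gamma subunit of the skeletal muscle L-type channel, had the largest decrease of all channel genes. It read 7.63, 7.52, 7.12 and 7.51 in the KO mice, against 9.88, 9.77, 9.74 and 10.00 in the Control mice. Cacnb1, the beta subunit of the same channel, read 6.61, 6.62, 6.30 and 6.42 in the KO mice, against 8.62, 8.36, 8.55 and 8.44 in the Control mice. Cacna2d1, its alpha2delta subunit, read 7.66, 6.97, 6.91 and 7.69 in the KO mice, against 9.31, 9.58, 9.55 and 9.54 in the Control mice. The KO mice were below the Control mice in all 3 genes, and for Cacna2d1 they formed a higher and a lower pair. The array had no probe for the alpha1 pore of this muscle channel, Cacna1s.

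Cacng1 changed by -2.40 ± 0.12 (19% of Control, adjusted p = 1.46e-07), Cacnb1 by -2.00 ± 0.098 (25%, adjusted p = 1.53e-07) and Cacna2d1 by -2.19 ± 0.19 (21.9%, adjusted p = 6.21e-06). The second tested Cacnb1 probe, detected on 3 KO and 3 Control arrays, was not called (-0.08, adjusted p = 0.727). Cacng6, another gamma subunit of muscle, read 4.71, 5.09, 5.21 and 5.30 in the KO mice, against 6.16, 6.53, 6.51 and 6.67 in the Control mice. It was detected on 2 KO arrays and changed by -1.39 ± 0.15 (adjusted p = 2.62e-05).

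The T-type pores changed little. Cacna1g read 6.30, 6.71, 6.60 and 6.62 in the KO mice, against 7.04, 6.94, 6.95 and 6.80 in the Control mice, and changed by -0.38 ± 0.099 (adjusted p = 0.00808). Cacna1h changed by -0.54 ± 0.20 with overlapping values (adjusted p = 0.0391), the called channel gene nearest to the threshold, and lost the call when any of 6 of the 8 mice was left out. Cacna2d3, an alpha2delta subunit of neuronal channels, was the calcium channel gene that was higher. It read 6.71, 6.37, 6.73 and 6.67 in the KO mice, against 5.12, 5.20, 5.30 and 5.20 in the Control mice, where 3 arrays detected it, and changed by 1.41 ± 0.095 (adjusted p = 1.17e-06). Just outside the threshold, the beta subunit Cacnb4 changed by 0.26 ± 0.12 (adjusted p = 0.0991).

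**Figure D3:**
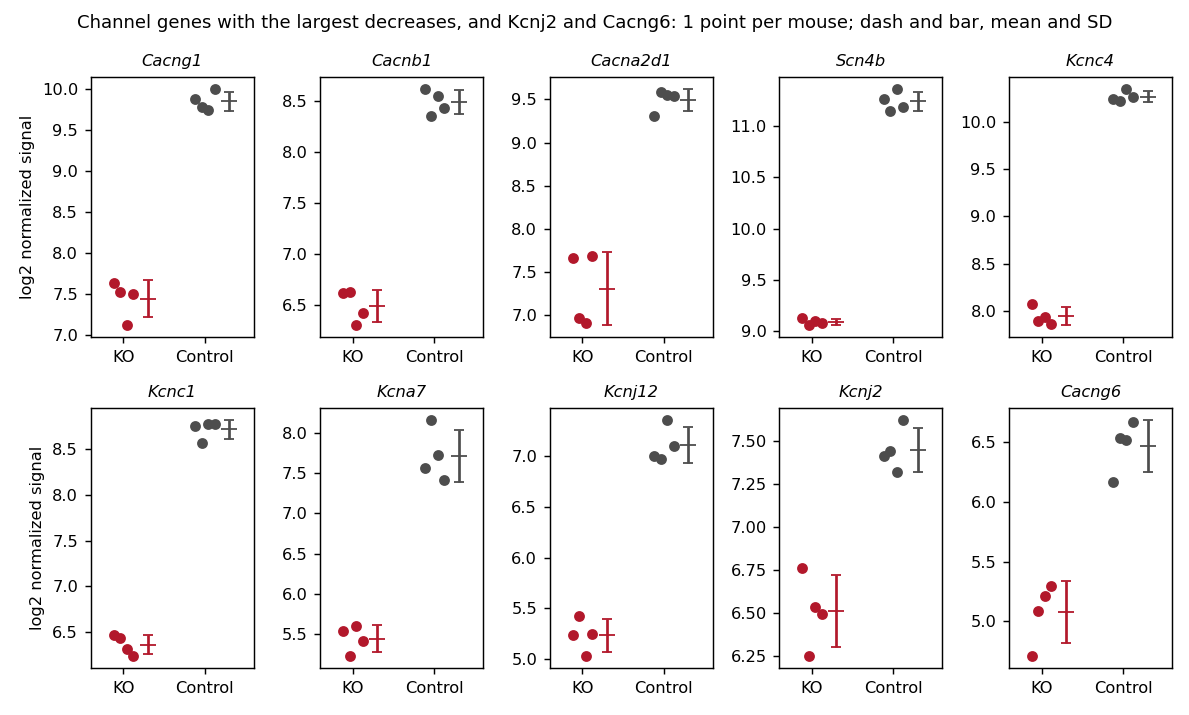
log2 normalized signal (vertical axis, separate scale per gene) of the 8 channel genes with the largest decreases and of Kcnj2 and Cacng6, 1 point per mouse, KO left and Control right, with the mean as a dash and the SD as a bar (n = 4 each). All KO points lie below all Control points in each panel, with mean changes of -2.40 for Cacng1 and -0.94 for Kcnj2.

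Channel subunits known from skeletal muscle, grouped by textbook role after their values had been seen, were Cacng1, Cacnb1, Cacna2d1, Cacng6, Scn4b, Kcnc4, Kcna7, Kcnj12 and Kcnj2. The pores of the muscle calcium and sodium channels, Cacna1s and Scn4a, had no probe on the array. All 9 listed subunits were lower, where 34.4% of all tested genes were lower. Their median change was -2.15, and no test was made on the group. Their summed linear signal was 1342 to 1545 in KO skin and 6117 to 6541 in Control skin. Skeletal muscle markers, such as Acta1 and Ckm, were lower in 15 of 15 tested genes with a median change of -1.78. Their summed signal was 187180 to 192454 in KO skin and 380800 to 387274 in Control skin. Their changes ran between -0.38 for Myl1 and -2.49 for Myh4, and the summed signal rests mostly on the brightest markers (Tnnc2, Myl1, Pvalb, Mylpf and Acta1), whose changes were among the smaller ones, so the sums of both sets are not compared. Schwann cell and myelin markers were lower in 6 of 6 tested genes, with 4024 to 4581 in KO skin and 10221 to 11383 in Control skin (S100b was not detected). Of 10 neuron markers 8 were not detected on any array, among them Prph, Snap25 and Syt1, and both tested ones were lower, with 113 to 135 in KO skin and 184 to 230 in Control skin. Macrophage and T cell markers were lower in 5 of 7 tested genes, with 5757 to 6230 in KO skin and 11009 to 11501 in Control skin (Cd8a was not detected), and of 4 tested adipocyte markers 1 was higher and 2 were lower. The part of these cell types in the decreases of channel genes was not tested.

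**Figure D4:**
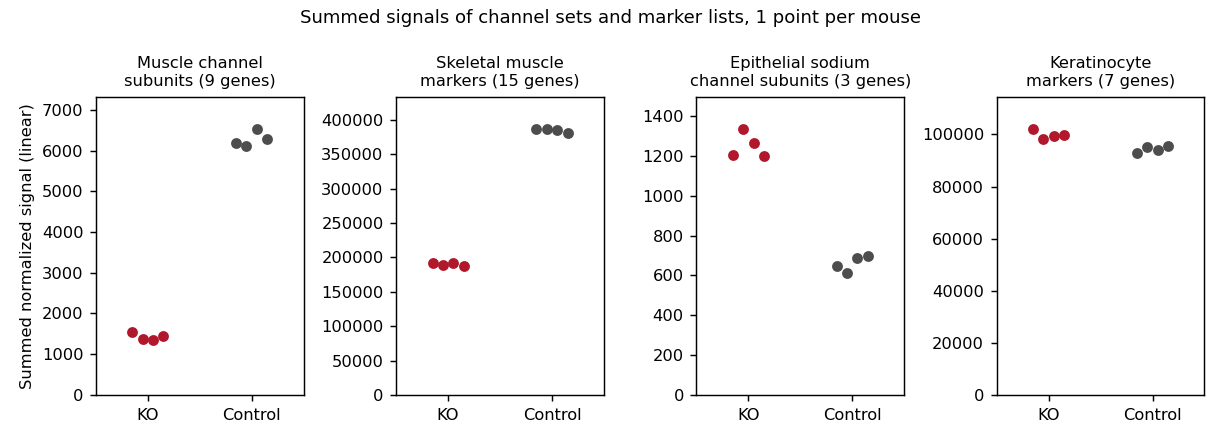
Summed linear normalized signal (vertical axis, separate scale per panel, starting at 0) of the 9 muscle channel subunits, 15 skeletal muscle markers, 3 epithelial sodium channel subunits and 7 keratinocyte markers, 1 point per mouse, KO left and Control right. Muscle channel subunits lay between 1342 and 1545 in KO skin and between 6117 and 6541 in Control skin. Keratinocyte markers lay between 98119 and 102250 in KO skin and between 92873 and 95486 in Control skin, a sum that rests mostly on Krt14 and Krt10.

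Genes that work with these channels were described from 4 further lists, to be read against the 63.8% of all tested genes that were called (29.4% higher, 34.4% lower). Of 17 tested genes for calcium release and reuptake, 1 was higher, 15 were lower and 1 was not called. Among the lower genes, Jph2 passed the detection filter through the 4 Control arrays only, so it had to differ in signal. Casq1, the calcium store protein of the sarcoplasmic reticulum, changed by -2.64 ± 0.14 (adjusted p = 3.11e-07), Stac3, which couples the muscle L-type channel to release, by -2.33 ± 0.11 (adjusted p = 9.49e-08), and Ryr1, the release channel, by -2.02 ± 0.066 (adjusted p = 1.19e-08). Stim1 and Orai1, which carry store-operated entry in most cells, changed by -0.92 ± 0.079 and -0.86 ± 0.083. Atp2b1, a plasma membrane calcium pump, was the gene of this list that was higher (0.58 ± 0.093, adjusted p = 0.00042).

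Of 9 tested genes for the sodium pump and its FXYD regulators, 2 were higher, 6 were lower and 1 was not called. Fxyd4, a pump regulator known from kidney collecting duct, changed by 4.10 ± 0.15 (adjusted p = 1.89e-08) and was detected on 2 Control arrays. Fxyd3 changed by 0.44 ± 0.079 (adjusted p = 0.000871). Atp1b2, a pump beta subunit, was lower (-2.85 ± 0.15, adjusted p = 2.34e-07). Of 5 tested partners of channel subunits, 3 were lower and 0 were higher. Besides Abcc9 these were Fgf13, which binds sodium channels (-1.55 ± 0.073, adjusted p = 1.10e-07), and Ank2, a membrane anchor (-0.96 ± 0.073, adjusted p = 2.97e-06). Of 9 tested genes for other cation channels, 1 was higher and 5 were lower, a share called near that of all tested genes. Trpv6, an epithelial calcium channel, changed by 1.06 ± 0.21 (adjusted p = 0.00168). Hcn2, a pacemaker channel, was not above background on any KO array and was at least 1.79-fold lower (adjusted p = 6.15e-05). Hcn2 passed the detection filter through the 4 Control arrays only, so it had to differ in signal.

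The array had several tested probes for 7 of these genes, and in none were probes called in both directions. Among all 54 tested channel probes, 13 were higher, 28 were lower and 13 were not called, against 62.7% called, 30.7% higher and 32% lower over all tested probes. Summed hair shaft and inner root sheath signal reached 2294 in Control mouse 1 and 2033 in Control mouse 3, with 582 in Control mouse 2 and 586 in Control mouse 4. Without Control mice 1 and 3, a comparison added after seeing the data, 34 channel genes were called, all of them among the 36 and in the same direction. Kcnf1 (adjusted p = 0.0706) and Cacna1g (adjusted p = 0.0738) lost their calls.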

How the data were processed

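Total RNA of whole back skin, 1 sample per mouse, was hybridised to Illumina MouseRef-8 bead arrays. The authors deposited, per probe and array, summary signal intensity and a detection p-value from GenomeStudio 2011.1, and a table that they had normalized there. Array build and probe positions are not given in the sources used here. Here the deposited intensity was corrected with normexp on negative-control statistics inferred from detection p-values and quantile normalized (neqc, offset 16, limma 3.58.1, R 4.3.3), then fitted with lmFit and eBayes for 4 KO and 4 Control mice. Symbols came from the platform annotation, with 23978 probes naming 1 gene and 1719 none, and sequences from RefSeq (GRCm38.p6). Named were Med1, the Scnn1 genes, within each role group every called gene with a log2 change of 1 or more and up to 3 more by adjusted p, and genes with only a bound. A bound compares the mean of the detected group with the mean of the other group, where each array of that group contributes the higher of its lowest detected signal and the probe's own. The channel genes, pathway lists and marker lists were chosen with earlier results of these data known. Related subunits share sequence, and cross-hybridisation was not tested. The fit was tested on simulated data. Summed signals add normalized values on the linear scale, offset included. The number of arrays limits precision. The methods' t-test, other background and scaling, the authors' normalized table, other detection filters, a replicate block and leaving out mice were tried.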

Additional observations from a re-analysis of the deposited data

Results flagged for a closer look

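In 92 groups of 4 mice, for the 46 tested genes in KO and in Control skin, 5 held a mouse far from the other 3 by Dixon's criterion, which chance gives in about 5% of groups. KO mouse 4 read 6.47 for Kcnk13, against 5.75 to 5.85 in the other KO mice. KO mouse 2 read 6.37 for Cacna2d3, against 6.67 to 6.73 in the other KO mice. Control mouse 1 read 9.31 for Cacna2d1, against 9.54 to 9.58 in the other Control mice. Control mouse 2 read 8.56 for Kcnc1, against 8.75 to 8.78 in the other Control mice. Control mouse 3 read 8.01 for Kcnk2, against 7.51 to 7.59 in the other Control mice. The first 4 genes kept their calls without the mouse in question, and Kcnk2 was not called with or without Control mouse 3.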

How the results depend on the processing

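With scaling to a common median, and with trend and robust variance, the same 36 channel genes were called, and the mean of a gene's tested probes gave the same counts of 10 higher and 26 lower. Cacna1h and Kcnf1 lost their calls under more settings than any other gene. Cacna1h (adjusted p = 0.0533) and Kcnip3 (adjusted p = 0.0614) lost theirs without background subtraction, Cacna1h without a detection filter (adjusted p = 0.0564), where Kcnj16, Kcnj6, Kcnk4 and Scn3b gained calls and 39 genes were called, Kcnf1 in the authors' normalized table (adjusted p = 0.0594), and Cacna1h and Kcnf1 with the methods' t-test (Benjamini-Hochberg adjusted p = 0.0972 and 0.0525). The methods' t-test called 10 higher and 25 lower channel genes at an unadjusted p below 0.05, 10 higher and 22 lower below the 0.005 that the methods name for array data, and 10 higher and 24 lower after Benjamini-Hochberg. Over probes detected on all 8 arrays, 8 channel probes were higher and 18 lower, 17 channel genes and 11 potassium channel genes were lower, and 0 calcium channel genes were higher, because fewer genes were tested. The median change of all tested probes moved by less than 0.1 under every setting. With the replicate block, 37 channel genes were called and 2 calcium channel genes were higher, as Cacnb4 gained a call (adjusted p = 0.0395). Same-numbered KO and Control mice did not deviate together (correlations -0.11, 0.01, 0.06 and -0.09). Of the KO mice, 1 of 4 correlated best with its own number. No pairing by number showed in these values, but the check cannot exclude a shared litter or day of processing. Leaving out each mouse in turn gave 10 to 11 higher and 25 to 26 lower channel genes, 13 to 14 higher and 27 to 28 lower channel probes, 1 to 2 higher calcium channel genes (2 without Control mouse 2, where Cacnb4 was called) and Kcnk2 lower without KO mouse 2 (-0.42, adjusted p = 0.0273). Among uncalled genes, leaving out 1 mouse gave -0.23 to 0.064 for Kcne4 (positive without KO mouse 3 or, at 0.058, Control mouse 1), -0.27 to 0.025 for Scn2b (positive without KO mouse 3) and -0.24 to 0.041 for Kcnn4 (positive without KO mouse 3 or, at 0.032, Control mouse 3). Without Control mice 1 and 3, a setting chosen after seeing the data, Kcnn4 read 0.033. Of 785 values for single genes under all alternatives, 762 kept their direction and side of the threshold. A slide or scan block was not run, as neither is in the files used here. Dim probes, such as Kcng4, Kcnh2, Kcnf1 and Kcne1l, limit what these signals can show.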
